A study of Mus musculus with 40 samples.

Results

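The first response to returning Ctbp2 RNA was read in the mouse embryonic stem cell line E14tg2a by comparing day 3 with day 0 of a time course. The comparison rests on 4 of the 40 samples of the series, or of its 34 RNA libraries: 2 libraries of day 0 and 2 of day 3, chosen by their titles. All of them carry the CtbpDKO genotype, labelled as the double knockout of Ctbp1 and Ctbp2, the day 0 controls included. The libraries are labelled Dox with a day, and the labels say neither which agent was given on which day nor which construct carries Ctbp2. Cells of every group were grown in GMEM with serum and leukaemia inhibitory factor. No library of the time course is labelled as handled alike without a rise of Ctbp2, so handling and Ctbp2 cannot be told apart. Where a level in cells with CtBP is needed, the WT libraries of a separate genotype table are used, and that table also holds CtbpDKO, the Dux knockout (DuxKO) and the combined Ctbp and Dux knockout (Ctbp_DuxTKO), with 2 libraries each. The labels do not say whether the libraries come from separate cultures or how many clones the knockout comprises, so p-values measure only the spread between these libraries.

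CtBP proteins are transcriptional corepressors. They do not bind DNA themselves but are brought to promoters by DNA-binding partners such as the Zeb and Klf factors, and they bring histone deacetylases, the demethylase Kdm1a and the methyltransferases Ehmt1 and Ehmt2. In embryonic stem cell cultures a small fraction of cells passes through a state that resembles the 2-cell embryo, marked by the Zscan4 genes and driven by the transcription factor Dux, whose gene the tables list as Duxf3. Zeb factors with CtBP are best known for holding down epithelial genes such as those of cell junctions and keratins.

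The 4 libraries held 20105615 to 23228831 counts. Structural RNA genes, such as those of the signal recognition particle and of RNase MRP, took 23.02% and 23.01% at day 0, and 27.25% and 24.92% at day 3. The set also held Ccdc107 and Ccnb1ip1, whose counts were nearly equal to those of the structural RNA genes Rmrp and Rpph1. Some reads may therefore be counted more than once in these shares. Mitochondrial transcripts took between 0.614% and 0.879%. The correlation of log2 counts-per-million (CPM, relative to the scaled library size) across genes was 0.976 between the day 0 libraries, 0.978 between the day 3 libraries and 0.966 to 0.972 between the days. The stem cell marker Pou5f1 stood at 708 ± 9.92 CPM at day 0 and 587 ± 12.3 CPM at day 3 (SD, n = 2 each), with a log2 fold change of -0.27 (SE 0.10, edgeR adjusted p = 0.149). DESeq2, an alternative test, gave Pou5f1 an adjusted p of 0.0301, and its days did not overlap in CPM. Summed over 8 stem cell markers, the level was 2687 and 2964 CPM at day 0, and 2598 and 2473 CPM at day 3.

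Ctbp2, the gene whose return defines the comparison (chr7:132986998-133124009, GRCm38.p6), was counted 1184 and 1328 times in the day 0 libraries, and 11119 and 11231 times in the day 3 libraries. The days did not overlap. Its level rose from 59.1 ± 0.281 CPM to 558 ± 20.5 CPM (SD, n = 2 each), which is 9.44-fold and a log2 fold change of 3.24 (SE 0.11, quasi-likelihood F test of edgeR, Benjamini-Hochberg adjusted p = 2.39e-09). Day 0 lay at 27.8% of the WT level of 213 ± 2.65 CPM in the genotype table, and day 3 lay 2.62-fold above it, with the tables scaled separately. Ctbp2 RNA at day 3 thus lay above its WT level, and reads from the gene were present at day 0 despite the knockout. Gene-level counts do not show whether those reads stem from a transcript that can make protein. Ctbp1, the paralog, had 1 and 2 counts at day 0, and 0 and 0 at day 3, and was too low to be tested. At day 9 Ctbp2 stood at 310 and 296 CPM, and at day 12 it had dropped to 49.4 and 44.7 CPM.

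**Figure D1:**
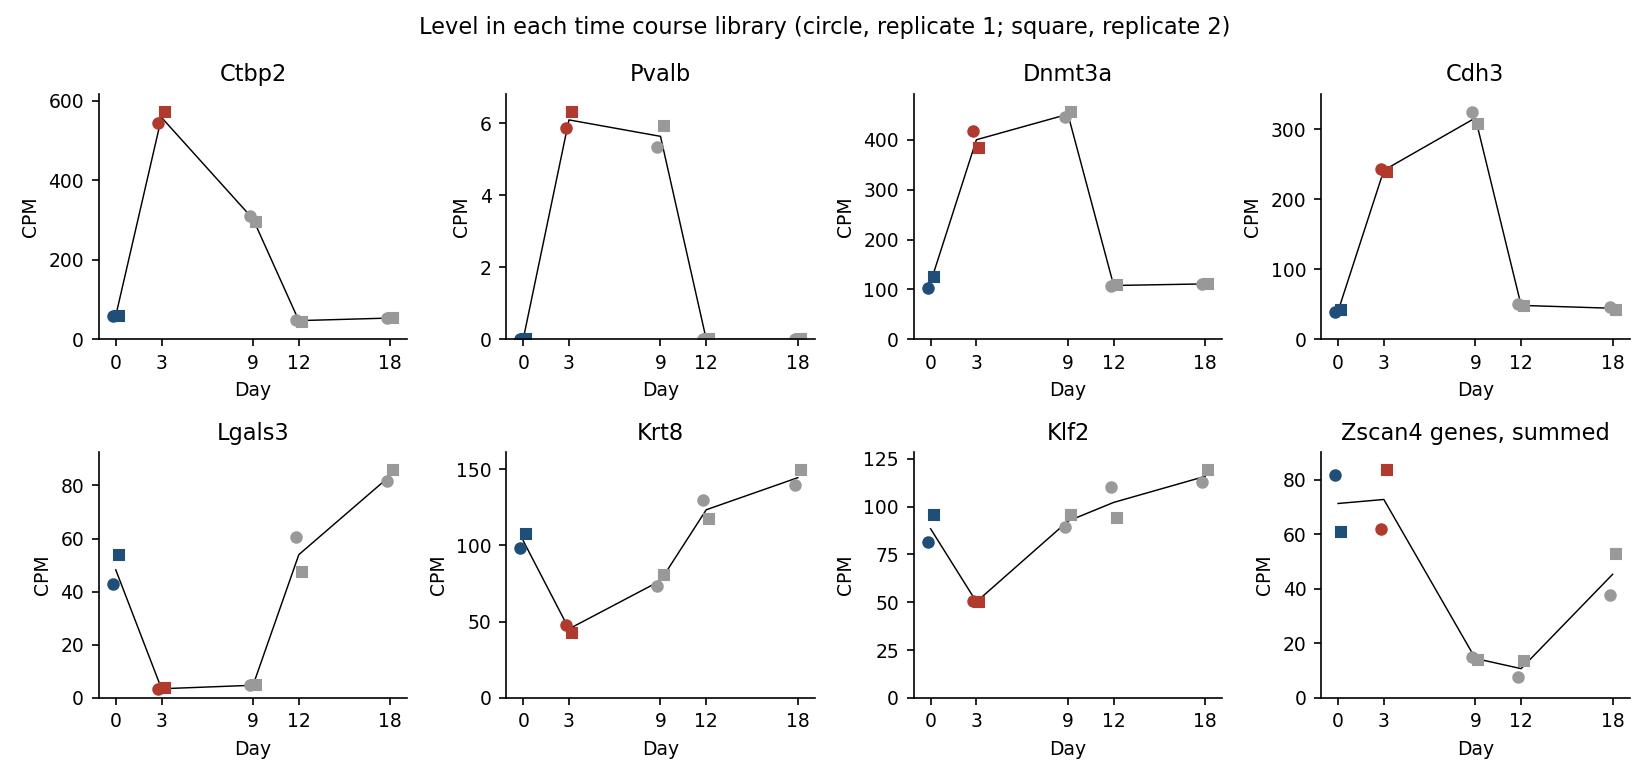
Level of 7 genes and of the summed Zscan4 genes in each of the 10 time course libraries, in CPM on the vertical axis against the day on the horizontal axis (circle, replicate 1; square, replicate 2; line, mean of the 2 libraries; day 0 blue, day 3 red, later days grey). Ctbp2, Pvalb, Dnmt3a and Cdh3 were high at days 3 and 9 and low at days 0, 12 and 18. Lgals3 had the opposite course, Krt8 and Klf2 were lowest at day 3, and the Zscan4 sum overlapped between days 0 and 3.

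Of 20612 genes tested, 1029 were called at day 3 against day 0, 4.99% of those tested, at an adjusted p under 0.05. The directions were nearly balanced, with 496 genes higher (2.41%) and 533 lower (2.59%). A difference of 2-fold or more was found for 144 of the higher genes (0.699% of those tested) and 209 of the lower genes (1.01%), and the median log2 fold change of all tested genes was -0.003. The number of calls depends on every library. It fell to 515 without day 0 replicate 1, 607 without day 0 replicate 2, 340 without day 3 replicate 1 and 455 without day 3 replicate 2. In all 4 of these fits, 96 of the higher and 123 of the lower genes were called again, and genes described as kept below are of this kind. With the structural RNA genes left out, 550 genes were higher and 524 lower.

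**Figure D2:**
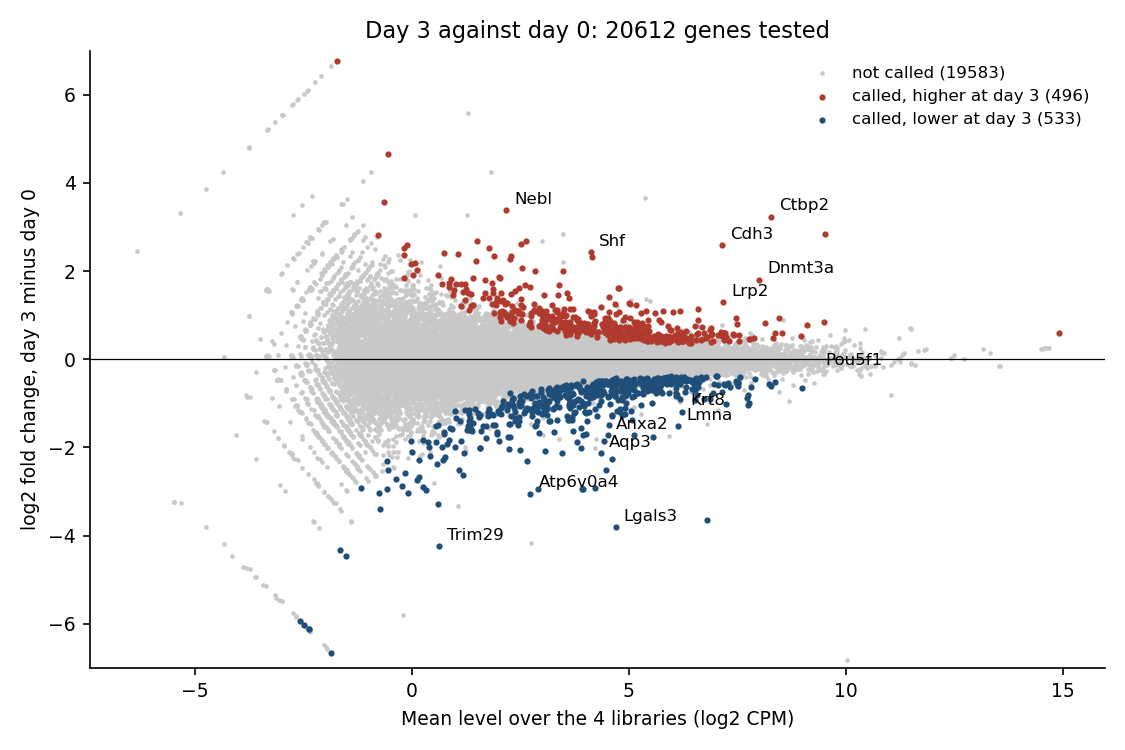
Log2 fold change of day 3 against day 0 (vertical axis) against the mean level of the 4 libraries in log2 CPM (horizontal axis) for the tested genes, with genes called higher in red and genes called lower in blue. Ctbp2, Cdh3, Dnmt3a and Lgals3 stand apart from genes of their level, and 4 called genes beyond a log2 fold change of 7 are not drawn.

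Among the genes that rose, Cdh3, which encodes the cell adhesion protein P-cadherin, had the smallest p-value after Ctbp2. Its counts were 782 and 931 at day 0, and 4981 and 4695 at day 3. It rose from 40.3 ± 1.89 to 242 ± 2.94 CPM (SD, n = 2 each), with a log2 fold change of 2.58 (SE 0.11, edgeR adjusted p = 1.54e-08). The 2 days were far apart and the libraries of each day close together. Dnmt3a, a de novo DNA methyltransferase, had 2084 and 2796 counts at day 0, and 8533 and 7516 at day 3. Its level rose 3.5-fold, from 114 ± 15 to 400 ± 24 CPM (log2 fold change 1.81, SE 0.12, edgeR adjusted p = 2.31e-06). Lrp2, the endocytic receptor megalin, rose from 1537 and 2001 counts to 4442 and 3776 (log2 fold change 1.30, SE 0.11, edgeR adjusted p = 1.35e-05). The chromatin remodeller gene Chd7 rose from 622 and 719 counts to 1351 and 1274 (1.05, SE 0.10, edgeR adjusted p = 4.42e-05). All 4 genes kept their calls whichever library was left out.

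Other named genes that rose were less abundant, below 50 CPM at day 3. Nebl, which encodes an actin-binding protein of the nebulin family, had 18 and 15 counts at day 0, and 158 and 168 at day 3, a 10.4-fold rise (edgeR adjusted p = 5.72e-05). Nrip3 went from 15 and 17 to 96 and 100 counts, and Rapgef4, an exchange factor for Rap GTPases, went from 29 and 39 to 189 and 205 counts. Shf, an SH2 domain adaptor gene, rose from 93 and 139 to 664 and 518 counts (log2 fold change 2.44, SE 0.17, edgeR adjusted p = 4.56e-06). Flnc, the actin crosslinker filamin C, rose from 254 and 317 to 874 and 788 counts (log2 fold change 1.63, edgeR adjusted p = 1.18e-05), and the lipid acyltransferase gene Agpat4 from 255 and 302 to 812 and 799 (1.62, edgeR adjusted p = 1.31e-05). Prtg, a cell surface protein of the early embryo, rose from 92 and 95 to 336 and 376 counts. Each call was kept. That both day 3 libraries lay above both day 0 libraries was a condition for naming these genes and is not a further result.

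Pvalb, which encodes the calcium-binding protein parvalbumin of neurons and fast muscle, had an all-or-none course. It lies at chr15:78191112-78206400 (GRCm38.p6). It had 0 counts in both day 0 libraries, and 120 and 124 counts in the day 3 libraries. Measured against a floor of 3 counts over the day 0 group, it was at least 86.2-fold higher at day 3 (edgeR adjusted p = 2.88e-05). It had 146 and 136 counts at day 9, and 0 in all 4 libraries of days 12 and 18 and in all 12 libraries of the genotype table, the WT libraries included. Of the other protein-coding genes within 100 kb, Ift27 had 129 and 226 counts at day 0, and 230 and 270 at day 3, and did not pass the test (log2 fold change 0.59, edgeR adjusted p = 0.136).

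Among the genes that fell, Lgals3 was the clearest. It encodes galectin-3, a sugar-binding protein that is secreted and also found inside cells. Its counts were 858 and 1203 at day 0, and 67 and 70 at day 3. The level fell 14.1-fold, from 48.2 ± 7.81 to 3.42 ± 0.207 CPM (log2 fold change -3.82, SE 0.17, edgeR adjusted p = 1.67e-08). It stayed at 4.7 and 4.8 CPM at day 9 and was back at 60.4 and 47.4 CPM at day 12. Aqp3, a water and glycerol channel of epithelia, fell from 638 and 772 counts to 175 and 128 (log2 fold change -2.13, SE 0.14, edgeR adjusted p = 3.19e-06). The membrane-binding annexin gene Anxa2 fell from 684 and 809 counts to 221 and 207 (log2 fold change -1.72, SE 0.12, edgeR adjusted p = 4.39e-06). Crip1, a small LIM domain protein gene, fell from 1422 and 1643 counts to 467 and 387. The calls of all 4 genes were kept, and days that do not overlap were a condition for naming them.

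Further genes with small p-values came from several cell functions. Lmna, which encodes the lamins A and C of the nuclear envelope, fell from 1983 and 2436 counts to 805 and 646 (log2 fold change -1.52, SE 0.12, edgeR adjusted p = 6.62e-06). Ndrg1 fell from 705 and 751 counts to 242 and 248, and Dpysl3, a cytoskeletal protein gene, from 605 and 838 to 203 and 173. Atp6v0a4, a subunit of the vacuolar proton pump, fell from 217 and 288 counts to 24 and 33, and Calcoco2, an autophagy receptor gene, from 818 and 765 to 132 and 132. Trim29 had the largest fitted change of the named genes that fell, from 53 and 72 counts to 2 and 4. The homeobox genes Cphx1, Cphx2 and Cphx3 fell together, Cphx2 from 586 and 550 counts to 82 and 59. They are near-identical copies, and the counts of Cphx3 were 98.3% to 102% of those of Cphx2 in each library, so the copies cannot be read as separate observations. All of these calls were kept.

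Many genes of epithelia fell. Of 47 tested members of a list of junction, keratin and epithelial regulator genes, 17 fell (36.2%, against 2.59% of all tested genes), 1 rose and 29 did not pass. The median log2 fold change was -0.46, against -0.003 over all tested genes. The count of members that fell was 15, 9, 12 and 8 without day 0 replicate 1, day 0 replicate 2, day 3 replicate 1 and day 3 replicate 2, and 6 members were kept in all 4 fits: Krt8, Krt18, Esrp1, Misp, Lad1 and Sfn. The keratin gene Krt8 fell from 1981 and 2410 counts to 979 and 836, that is from 103 ± 6.41 to 45.3 ± 3.71 CPM (log2 fold change -1.19, SE 0.11, edgeR adjusted p = 3.47e-05). Its partner in keratin filaments, Krt18, fell from 507 and 603 counts to 290 and 309. The days did not overlap for either keratin. Esrp1, an epithelial splicing regulator, fell from 465 and 539 counts to 178 and 233 (log2 fold change -1.20, SE 0.16, edgeR adjusted p = 0.00075). Misp, an actin-bundling protein gene, fell from 141 and 180 to 40 and 33 counts (log2 fold change -2.05, SE 0.27, edgeR adjusted p = 0.000819). The member that rose was Cdh3, and the classical epithelial cadherin Cdh1, named after its value was seen, did not pass (log2 fold change -0.30, edgeR adjusted p = 0.181). Against day 3, 10 of the 47 members were higher at day 9 (21.3%, against 0.524% of all tested genes) and 0 lower. Krt8 was higher by a log2 fold change of 0.76 (edgeR adjusted p = 0.00506) and Esrp1 by 0.79 (edgeR adjusted p = 0.0308). Misp did not pass there (-0.39, edgeR adjusted p = 0.678). Both comparisons use the same day 3 libraries. In a bulk sample, fewer cells of a type and less RNA per cell cannot be told apart.

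Genes of a mesenchymal list were called in both directions. Of 15 tested members, 1 rose and 2 fell (6.67% and 13.3%, against 2.41% and 2.59% of all tested genes), with a median of 0.08. Zeb2, a zinc finger repressor that binds CtBP, rose from 32 and 38 counts to 174 and 146, a 4.85-fold rise (log2 fold change 2.27, SE 0.26, edgeR adjusted p = 0.0003). Vim, the intermediate filament gene vimentin, fell from 5447 and 6871 counts to 3102 and 2517 (log2 fold change -1.05, SE 0.14, edgeR adjusted p = 0.000714). Both calls were kept. Tgfb1, which encodes a growth factor, also fell (log2 fold change -0.76, edgeR adjusted p = 0.0468), and it was not called in any of the 4 fits that leave out a library, where its log2 fold change ran from -0.88 to -0.65 and its adjusted p reached 0.235.

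Zeb factors bind the E-box CACCTG, so the promoters of genes that moved were searched for it. RefSeq promoter windows of GRCm38.p6, from 250 bases before to 50 bases after the start, were matched by symbol to 12310 of the tested genes, and the first listed start was used. The E-box was searched on both strands as CACCTG and CAGGTG, which are reverse complements and cannot overlap. It was held by 19% of the promoters of tested genes, by 90 of 343 promoters of genes that fell (26.2%) and by 65 of 337 of genes that rose (19.3%). Among epithelial genes it was held by 10 of 13 promoters of members that fell (76.9%) and by 10 of 15 of the other members (66.7%), so members that did not fall held the E-box often as well. The motif CCACACCC (GGGTGTGG on the other strand), of the kind that Klf factors bind, was held by 3.93% of the promoters of tested genes, 4.96% of those of genes that fell and 3.56% of those of genes that rose. A match is a description of the letters and not evidence of binding. The promoters of both keratins and of Lgals3 are shown because these genes fell together, and that of Dnmt3a because it rose and holds no E-box in this window. They are written 5′ to 3′ on the gene's strand with the E-box in capitals. They lie at chr15:102004293-102004592 (minus strand) for Krt8, chr15:102027966-102028265 (plus strand) for Krt18, chr14:47373610-47373909 (plus strand) for Lgals3 and chr12:3806730-3807029 (plus strand) for the first of 3 listed starts of Dnmt3a.
Krt8: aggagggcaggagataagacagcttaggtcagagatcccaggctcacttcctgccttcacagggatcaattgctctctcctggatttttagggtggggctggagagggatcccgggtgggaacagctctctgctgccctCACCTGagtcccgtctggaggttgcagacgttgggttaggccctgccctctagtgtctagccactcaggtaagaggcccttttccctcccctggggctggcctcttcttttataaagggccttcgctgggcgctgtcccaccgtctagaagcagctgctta
Krt18: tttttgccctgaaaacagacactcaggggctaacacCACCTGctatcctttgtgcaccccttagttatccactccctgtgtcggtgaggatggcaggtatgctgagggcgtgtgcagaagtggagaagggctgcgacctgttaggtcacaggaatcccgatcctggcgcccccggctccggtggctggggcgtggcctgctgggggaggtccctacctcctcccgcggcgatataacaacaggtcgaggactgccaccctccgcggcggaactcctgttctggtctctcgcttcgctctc
Lgals3: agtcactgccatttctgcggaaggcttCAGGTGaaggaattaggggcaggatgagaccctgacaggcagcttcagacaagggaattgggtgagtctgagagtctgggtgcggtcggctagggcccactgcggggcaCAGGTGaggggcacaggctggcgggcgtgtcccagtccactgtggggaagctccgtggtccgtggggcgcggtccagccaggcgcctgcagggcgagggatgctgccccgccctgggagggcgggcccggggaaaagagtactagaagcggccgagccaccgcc
Dnmt3a: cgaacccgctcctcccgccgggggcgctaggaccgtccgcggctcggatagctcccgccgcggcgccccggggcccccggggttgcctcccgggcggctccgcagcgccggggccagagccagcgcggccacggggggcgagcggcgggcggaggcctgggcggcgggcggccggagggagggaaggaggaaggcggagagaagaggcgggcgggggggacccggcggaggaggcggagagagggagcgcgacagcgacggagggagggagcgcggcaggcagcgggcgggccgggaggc

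Naive pluripotency genes, which mark the ground state of embryonic stem cells, fell in part. Of 20 tested members 8 fell (40%, against 2.59% of all tested genes), 1 rose and 11 did not pass, with a median log2 fold change of -0.31. The count of members that fell was 5 without day 3 replicate 1, where it was lowest, and Klf2, Tcl1, Fgf4 and Prdm14 were kept in all 4 fits. Klf2, a transcription factor that sustains the naive state, fell from 1635 and 2137 counts to 1031 and 982 (log2 fold change -0.82, SE 0.11, edgeR adjusted p = 0.00109). Prdm14, a repressor of differentiation genes and of DNA methyltransferases, fell from 165 and 196 counts to 78 and 72 (log2 fold change -1.18, SE 0.19, edgeR adjusted p = 0.0026). Tcl1, a cofactor of Akt, fell from 754 and 936 counts to 458 and 475, and Fgf4, a growth factor gene, from 2097 and 2509 to 1286 and 1413. Nanog, a core factor of pluripotency, had 4290 and 5077 counts at day 0, and 2765 and 3013 at day 3 (log2 fold change -0.61, SE 0.12, edgeR adjusted p = 0.00893). That call was lost without day 0 replicate 2 (log2 fold change -0.56, edgeR adjusted p = 0.054) and without day 3 replicate 1 (-0.52, edgeR adjusted p = 0.121). The member that rose, Socs3, a feedback inhibitor of LIF signalling, was called only in the full fit and without day 3 replicate 2 (log2 fold change 0.59). Its adjusted p was 0.0577, 0.082 and 0.149 without day 0 replicate 1, day 0 replicate 2 and day 3 replicate 1. Tbx3, Nr5a2 and Dppa3 also fell (log2 fold change -0.74, -0.65 and -1.30) and were not kept, with an adjusted p of up to 0.0599, 0.0641 and 0.342. Of the 20 naive members, 6 were higher at day 9 than at day 3 (30%, against 0.524% of all tested genes) and 0 lower. Klf2 was higher at day 9 than at day 3 by a log2 fold change of 0.88 (edgeR adjusted p = 0.00328), and so was Prdm14 by 0.86 (edgeR adjusted p = 0.0428). The other kept members did not pass, with a log2 fold change of 0.01 for Tcl1 (edgeR adjusted p = 0.985) and -0.24 for Fgf4 (edgeR adjusted p = 0.348). Day 9 and day 0 are both set against the same day 3 libraries here.

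Formative genes turn on as cells leave the naive state. Of 20 tested members of a list of core and formative pluripotency genes, 4 rose and 1 fell. These shares were 20% and 5%, against 2.41% and 2.59% of all tested genes. The 4 that rose were Dnmt3a, Pou3f1, Lef1 and Tcf15, and all 4 were kept. Pou3f1, a POU factor of the epiblast and neural lineage, rose from 90 and 96 counts to 273 and 208 (log2 fold change 1.45, SE 0.20, edgeR adjusted p = 0.000876). Lef1, a transcription factor of Wnt signalling, rose from 52 and 58 counts to 145 and 143 (log2 fold change 1.47, SE 0.22, edgeR adjusted p = 0.0018). Tcf15, a factor that primes cells for differentiation, rose from 425 and 441 counts to 838 and 754 (log2 fold change 0.96, SE 0.12, edgeR adjusted p = 0.000363). Each was higher in both day 3 libraries than in both day 0 libraries. The list's median was 0.11, with 12 members above 0 and 8 below, and 15 members did not pass. Otx2 (log2 fold change 0.49, edgeR adjusted p = 0.0536) was among those 15. So was Fgf5 (-1.47, edgeR adjusted p = 0.15), whose mean level at day 0 was only 1.11 CPM. The list's member that fell was Dnmt3b, described with the DNA methylation genes.

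Of 12 DNA methylation genes, Dnmt3a rose, 3 fell and 8 did not pass, so 8.33% rose and 25% fell, against 2.41% and 2.59% of all tested genes. The maintenance methyltransferase Dnmt1 had 6555 and 8734 counts at day 0, and 8108 and 7145 at day 3 (log2 fold change 0.09, SE 0.11, edgeR adjusted p = 0.745). Its cofactor Uhrf1 had a log2 fold change of -0.18 (edgeR adjusted p = 0.48), and the cofactor of de novo methylation Dnmt3l one of -0.17 (edgeR adjusted p = 0.491). The days overlapped in CPM for Dnmt1, while for Uhrf1 the lower day 0 library (382 CPM) lay just above the higher day 3 library (379 CPM). The de novo enzyme Dnmt3b fell from 4064 and 5149 counts to 3146 and 2830 (log2 fold change -0.54, SE 0.11, edgeR adjusted p = 0.0142), opposite in sign to Dnmt3a, and lost its call without day 0 replicate 2, day 3 replicate 1 or day 3 replicate 2 (adjusted p 0.0964, 0.0735 and 0.112). Tet2, which oxidises methylated cytosine, fell (log2 fold change -0.59, edgeR adjusted p = 0.00978) and lost its call without day 3 replicate 1 (-0.54, adjusted p 0.112). Pramel7, known to promote loss of Uhrf1, had 42 and 28 counts at day 0, and 6 and 2 at day 3 (log2 fold change -3.03, SE 0.66, edgeR adjusted p = 0.0179). Its call was lost without day 0 replicate 1 (-2.62, adjusted p 0.12), day 3 replicate 1 (-3.96, adjusted p 0.0587) or day 3 replicate 2 (-2.48, adjusted p 0.135). DNA methylation itself was not analysed here.

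Of the Pramel family, 7 members were tested and 3 fell (42.9%, against 2.59% of all tested genes), Pramef12 and Pramef17 beside Pramel7. Pramef12 fell from 674 and 799 counts to 300 and 268 (log2 fold change -1.29, SE 0.11, edgeR adjusted p = 2.14e-05) and was kept, while Pramef17, at 33 and 36 counts, then 8 and 7, was called in none of the 4 fits (adjusted p of up to 0.163). The list's count was 2 without day 0 replicate 2 and 1 without each of the other libraries. Family members share sequence, so their counts are uncertain. Dppa2, an activator of Dux and germline genes, fell from 1740 and 1891 counts to 1198 and 1137 (log2 fold change -0.55, SE 0.10, edgeR adjusted p = 0.0056), and the days did not overlap. Its adjusted p was 0.0552 without day 3 replicate 1 and 0.0512 without day 3 replicate 2. Its partner Dppa4 had 1289 and 1316 counts at day 0, and 1208 and 1157 at day 3 (log2 fold change -0.06, edgeR adjusted p = 0.802).

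Germline genes, often silenced by promoter methylation in somatic cells, split in direction, with 3 of 28 tested members higher and 2 lower (10.7% and 7.14%, against 2.41% and 2.59% of all tested genes). Stra8, the retinoic acid target that opens meiosis, fell from 288 and 288 counts to 69 and 59 (log2 fold change -2.09, SE 0.25, edgeR adjusted p = 0.000379) and was kept. Dazl, a germ cell RNA-binding protein gene, had 83 and 48 counts at day 0, and 55 and 46 at day 3, and did not pass (log2 fold change -0.31, edgeR adjusted p = 0.698). The 3 higher genes were Ddx4, Tdrkh and Meioc, which act in the piRNA pathway and in meiosis, with log2 fold changes of 0.77, 0.86 and 1.00. None of the 3 was kept: their number was 1 without day 0 replicate 1 and 0 without day 0 replicate 2, day 3 replicate 1 or day 3 replicate 2, with an adjusted p of up to 0.144, 0.273 and 0.138. Rpl10l, a testis copy of a ribosomal protein gene, fell by 0.71 on the log2 scale and was called neither without day 0 replicate 2 nor without day 3 replicate 1 (adjusted p of up to 0.166).

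Few 2-cell genes, the subject of the series title, passed the test at day 3. Of 34 tested members 2 fell (5.88%, against 2.59% of all tested genes), none rose and 32 did not pass, with a median log2 fold change of -0.36. At an unadjusted p under 0.05, 1 was higher and 5 were lower, and DESeq2 called 0 higher and 2 lower. The 2 that fell were Gm5662, from 445 and 291 to 137 and 203 counts, and Tcstv3, from 94 and 63 to 20 and 29 counts, with edgeR adjusted p of 0.0485 and 0.0487. Their number was 1 without day 0 replicate 2 and 0 without each of the other libraries. Zscan4c had 272 and 235 counts at day 0, and 204 and 297 at day 3 (log2 fold change 0.06, SE 0.21, edgeR adjusted p = 0.911), and Zscan4d had 83 and 113, then 58 and 106 (log2 fold change -0.16, SE 0.66, edgeR adjusted p = 0.931). Duxf3 had 20 and 19 counts at day 0, and 24 and 19 at day 3, and a difference was not detectable at this depth. Summed over 9 Zscan4 genes, the level was 81.6 and 61 CPM at day 0, 62.1 and 83.5 CPM at day 3, and 15 and 13.9 CPM at day 9. The days 0 and 3 overlapped and day 9 lay below both. Against day 3, 13 of the 34 members were lower at day 9 (38.2%, against 0.592% of all tested genes), with a median of -1.95. The Zscan4 copies are near-identical, so their sum is safer than any member.

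Other regulators of the 2-cell state gave no call. Of 23 tested repressors of that state, such as the corepressor Trim28 and the nucleolar protein gene Ncl, 0 were called higher and 0 lower by edgeR, and 0 and 0 by DESeq2. At an unadjusted p under 0.05, 3 were higher and 2 lower. Trim28 had 24666 and 29567 counts at day 0, and 27484 and 22523 at day 3 (log2 fold change -0.03, edgeR adjusted p = 0.923), and Ncl had a log2 fold change of 0.15 (edgeR adjusted p = 0.518). Of 33 tested partners and subunits of the CtBP complex, 1 rose, Zeb2, and 3 fell (3.03% and 9.09%, against 2.41% and 2.59% of all tested genes), with a median of -0.03. Klf8, a zinc finger factor that binds CtBP, fell from 795 and 946 counts to 386 and 375 (log2 fold change -1.11, SE 0.11, edgeR adjusted p = 5.57e-05) and was kept. The others that fell were Rreb1 (log2 fold change -0.70) and the corepressor gene Rcor2 (-0.45). Rreb1 lost its call without day 0 replicate 2 (-0.50, adjusted p 0.0845) or day 3 replicate 2 (-0.58, adjusted p 0.0971), and Rcor2 without either of them or day 3 replicate 1, with an adjusted p of up to 0.201.

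**Figure D3:**
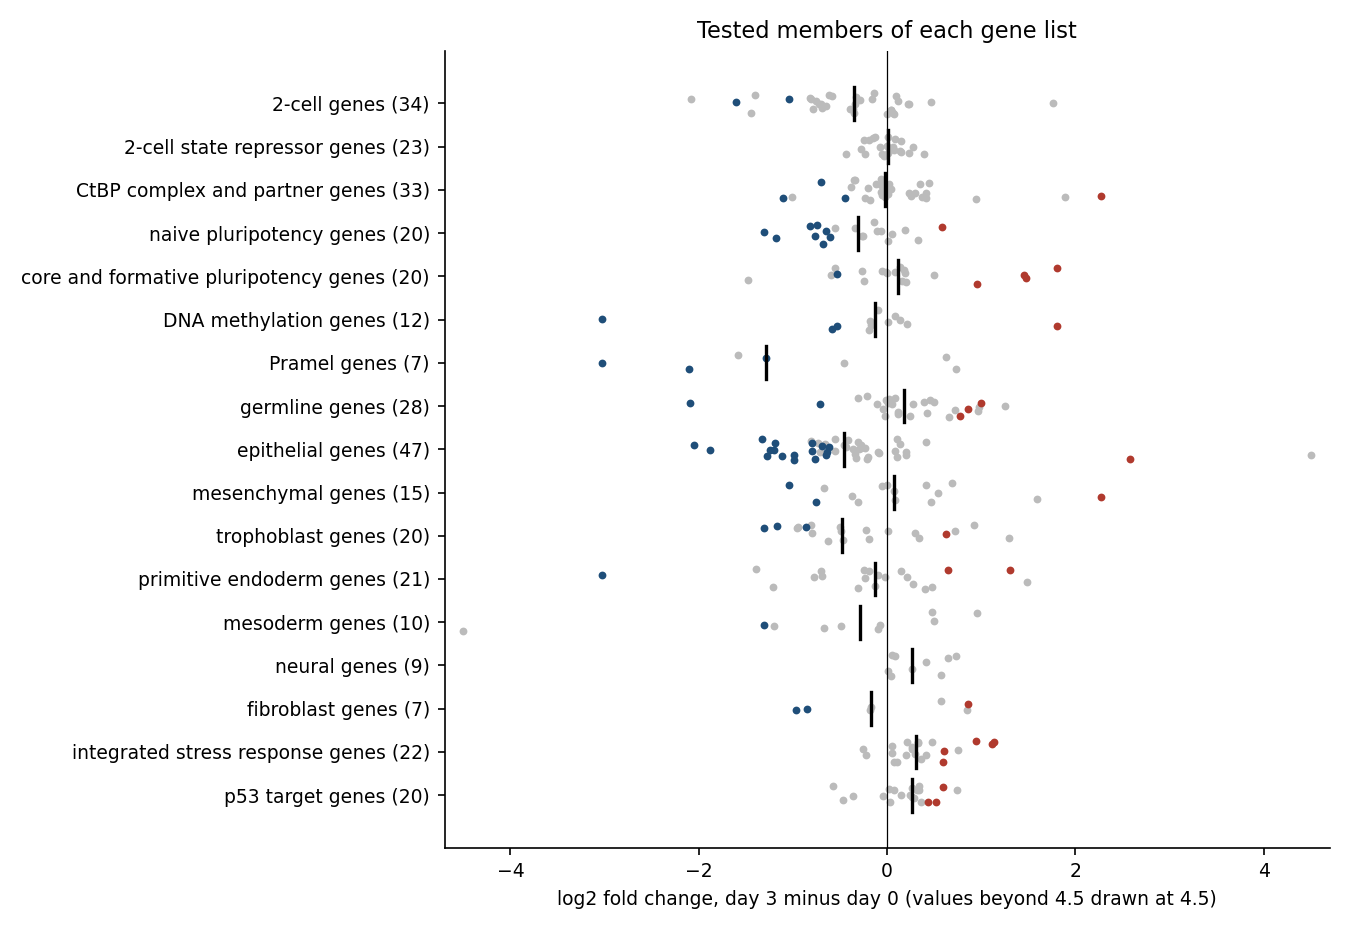
Log2 fold change of day 3 against day 0 (horizontal axis) for each tested member of 17 gene lists (vertical axis, with the number of tested members), as points jittered vertically, with genes called higher in red, called lower in blue and not called in grey, and a black bar at the median. The epithelial and naive lists hold 17 and 8 genes that fell, and the 2-cell state repressors hold no call.

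Markers of other cell types were checked, with 2.41% of all tested genes higher and 2.59% lower as the background. The trophoblast list had 1 member higher and 3 lower of 20, of which Eomes and Tead4 were kept. Eomes, a T-box factor of trophoblast and early mesoderm, fell from 371 and 403 counts to 161 and 135 (log2 fold change -1.30, SE 0.14, edgeR adjusted p = 0.000155), and it was also the member of the mesoderm list that fell, 1 of 10. Tead4 fell from 539 and 733 counts to 324 and 331 (log2 fold change -0.87, SE 0.12, edgeR adjusted p = 0.00129). The primitive endoderm list had 2 higher and 1 lower of 21, and Lrp2 was the member kept. Of the neural list 0 of 9 were called by edgeR and 0 by DESeq2, with 2 higher and 0 lower at an unadjusted p under 0.05. Of the fibroblast list 1 of 7 rose, the collagen gene Col5a1 (from 199 and 226 to 378 and 351 counts, kept), and 2 fell. Summed levels at day 0, then day 3, were 146 and 167, then 131 and 131 CPM for the trophoblast list. They were 28.5 and 27.2, then 15.3 and 16.6 CPM for mesoderm, and 706 and 853, then 1029 and 912 CPM for primitive endoderm. Neural genes had 196 and 203, then 220 and 213 CPM, and fibroblast genes 41.6 and 47.5, then 43.9 and 39.8 CPM. The days overlapped only for the fibroblast list. The called members that were not kept were Plet1, which fell, and Ddah1, which rose, of the trophoblast list, Lama1 (higher) and Sox7 (lower) of the primitive endoderm list, and Fbn1 and Thy1 (lower) of the fibroblast list. The part of such cells in the results above was not tested.

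Signalling, stress and metabolic lists were read against the same 2.41% and 2.59% of all tested genes. The integrated stress response list had the largest share of higher calls among the lists, 5 of 22 (22.7%, against 2.41% of all tested genes), with 0 lower and a median of 0.31. Ddit4, a brake on mTORC1, rose from 1137 and 1439 counts to 2765 and 2548 (log2 fold change 1.13, SE 0.19, edgeR adjusted p = 0.0036) and was the member kept. The list's count was 1 without day 0 replicate 1, and 2 without day 0 replicate 2 or day 3 replicate 1. The others of this list that rose were Sesn2, Atf5, Aldh1l2 and Vldlr (log2 fold change 0.60, 0.60, 1.11 and 0.94, adjusted p of up to 0.0711, 0.181, 0.0958 and 0.226 in the 4 fits). Of 20 p53 targets 3 rose, Sesn2, Plk2 and Zmat3, and none was kept, and the count was 0 without day 0 replicate 1 or day 3 replicate 1. Of 24 glycolysis genes Slc2a1 and Ldhb rose and Pfkp fell, and the lactate dehydrogenase gene Ldhb was kept (from 719 and 817 to 1425 and 1263 counts). Of 29 imprinted genes 4 rose, Snrpn, Slc38a4, Grb10 and Peg3, none of them kept (adjusted p of up to 0.0807, 0.0678, 0.14 and 0.232), and Phlda2, a growth-limiting gene of the placenta, fell from 159 and 160 to 69 and 45 counts and was kept. The Wnt list had Lef1 higher, which was kept, and Myc and Ccnd1 lower of 17, called in none of the 4 fits. The Nodal and Bmp list had Smad7 and Lefty1 higher and Id1 lower of 19, with Smad7, an inhibitor of Smad signalling, kept (log2 fold change 0.60, edgeR adjusted p = 0.004). Of 18 interferon response genes H2-K1 and H2-D1 rose, and neither was called in any of the 4 fits. The mitochondrial list had 0 calls of 13 and the Srf list 0 of 20 by edgeR, against 0 and 2 by DESeq2, and 2 and 4 genes at an unadjusted p under 0.05.

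The day 3 response was then set against the difference between CtbpDKO and WT cells, taken from the genotype table, which shares no library with the time course and was scaled separately. There, 26.1% of the tested genes were called, 14.7% higher and 11.4% lower in CtbpDKO. Of 3045 tested genes that were higher in CtbpDKO than in WT, 343 fell at day 3 (11.3%, against 2.59% of all tested genes) and 58 rose, with a median log2 fold change of -0.15. Of 2360 genes that were lower in CtbpDKO, 187 rose (7.92%, against 2.41%) and 37 fell, with a median of 0.14. Seen from the other side, 64.8% of 529 genes that fell and were tested in both tables were high in CtbpDKO, and 37.9% of 493 genes that rose were low in CtbpDKO. Of 625 genes called in both comparisons, 530 (84.8%) had opposite signs. Across the 5405 genes called in CtbpDKO, Pearson's r of the log2 fold changes was -0.445 and Spearman's rho -0.47, as a description across genes, which are not independent replicates. Most genes of the knockout difference were not called at day 3: 2644 of 3045 and 2136 of 2360. The count of 343 was 225 without day 0 replicate 1, 181 without day 0 replicate 2, 141 without day 3 replicate 1 and 155 without day 3 replicate 2. In the same order the count of 187 became 67, 122, 54 and 89.

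**Figure D4:**
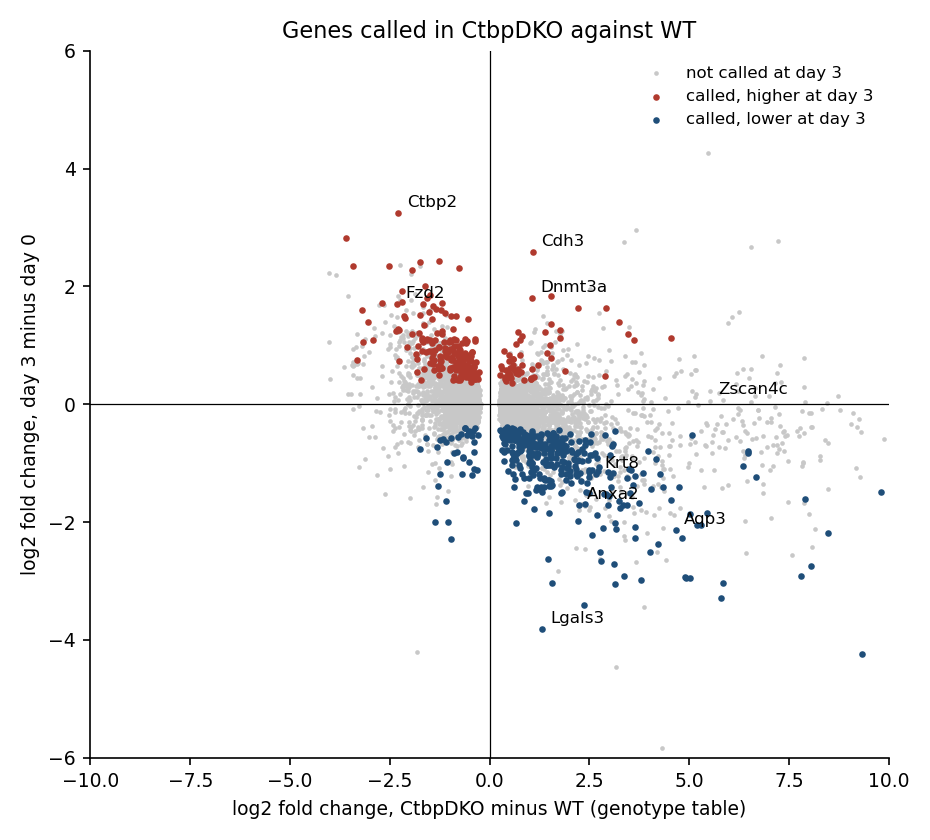
Log2 fold change of day 3 against day 0 (vertical axis) against that of CtbpDKO minus WT (horizontal axis) for 5398 of the 5405 genes called in CtbpDKO, with genes called higher at day 3 in red, called lower in blue and others in grey. Lgals3, Krt8, Anxa2 and Aqp3 were high in CtbpDKO and fell, Ctbp2 itself was low and rose, and Cdh3 and Dnmt3a were higher in both comparisons.

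Of the genes named above, Crip1, Lmna, Aqp3, Krt8, Stra8 and Calcoco2 were among those high in CtbpDKO, by log2 fold changes of 3.27, 2.87, 4.66, 2.66, 3.64 and 4.02. Shf, Lef1 and Zeb2 were low in CtbpDKO, by -1.26, -2.12 and -1.95, and rose at day 3. The signs of 95 genes were the same in both comparisons. Cdh3 was 1.09 higher in CtbpDKO than in WT on the log2 scale (edgeR adjusted p = 0.000194) and rose by 2.58 from day 0 to day 3. Dnmt3a was 1.07 higher in CtbpDKO (edgeR adjusted p = 7.4e-07) and rose by 1.81 from day 0 to day 3. Its level was 87.5 and 92.8 CPM in WT, and 196 and 184 CPM in CtbpDKO. At day 0 of the time course Dnmt3a stood at 104 and 125 CPM, below those CtbpDKO libraries. The tables were scaled separately, so the changes of the 2 comparisons cannot be added. Klf2 was lower in CtbpDKO (log2 fold change -0.38, edgeR adjusted p = 0.00371) and fell at day 3. Lrp2, which rose at day 3, did not pass in CtbpDKO against WT (log2 fold change 0.0028, edgeR adjusted p = 0.991). Nebl, Nrip3, Rapgef4, Flnc and Agpat4 also rose without a call in CtbpDKO, and Dpysl3 fell without one. Of the genes tested in both tables, 248 of 493 that rose and 149 of 529 that fell were not called in CtbpDKO. As background, 5405 of all 19978 genes tested in both tables were called in CtbpDKO, and the rest were not.

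Genes high in CtbpDKO were placed in Dux-dependent and Dux-independent classes by further calls, and genes that met neither rule were left out. Dux-dependent genes were called lower in Ctbp_DuxTKO than in CtbpDKO (as were 4.54% of all genes tested there). Of 422 tested, 53 fell at day 3 (12.6%) and 9 rose, with a median of -0.11. Dux-independent genes were called higher in Ctbp_DuxTKO than in DuxKO (as were 21.4% of all genes tested there) and not called lower than in CtbpDKO. A missing call with 2 libraries a group does not show that Dux is not needed. Of 1638 such genes tested, 269 fell (16.4%) and 27 rose, with a median of -0.25. Both shares exceed the 2.59% of all tested genes, and the difference between the classes was not tested. Among the genes at least 2-fold higher in CtbpDKO, 40 of 206 Dux-dependent genes (19.4%) and 191 of 922 Dux-independent genes (20.7%) fell, with medians of -0.42 and -0.48. Their calls depended on single libraries: the 53 became 27, 29, 18 and 21, and the 269 became 189, 140, 116 and 129, without day 0 replicate 1, day 0 replicate 2, day 3 replicate 1 and day 3 replicate 2. In all 4 fits 12 Dux-dependent and 83 Dux-independent genes were called lower. Between days 3 and 9, 31 Dux-dependent and 18 Dux-independent genes fell, that is 7.35% and 1.1% of the classes against 0.592% of all tested genes, while 7 and 35 rose (1.66% and 2.14%, against 0.524%). The difference between the classes was not tested here either. These values share the day 3 libraries with those of day 3 against day 0.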

How the data were processed

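Gene counts were taken from the time course and genotype tables as the authors deposited them: whole-number counts per gene symbol, not normalized. Per the submitters' processing notes, Trim Galore, HISAT2 and featureCounts were used with the build mm10; versions, the strand setting and the treatment of overlapping genes are not given in the sources used here. RNase MRP RNA (Rmrp) and the gene Ccdc107 held counts within a few percent of each other, so some reads appear to be counted for more than 1 gene, and overlapping or near-identical genes are uncertain.

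Counts were tested with edgeR 4.0.16 in R 4.3.3 (quasi-likelihood F test, TMM factors of 0.915 to 1.099, filterByExpr, prior count 0.125). All 10 time course libraries entered 1 fit whose only term was the group, and the contrast was day 3 minus day 0. P-values were adjusted by Benjamini-Hochberg over 20612 genes. The 12 libraries of the genotype table (21193 genes) were fitted separately. In simulated data of 20028 genes, 76 of 100 genes changed 2-fold and 97 of 100 changed 4-fold were recovered. The 18 false calls are to be read beside these 76 and 97 recovered genes, not beside all 20028. The changed genes were drawn only from genes above a minimum mean count, and recovery was not broken down by count level. Recovery therefore cannot be applied to genes with few counts, such as Duxf3, Zscan4d and Pramel7. DESeq2 1.42.0 was an alternative. A fold against a group at 0 used a floor of 3 counts over the group. Such a floor covers counting error only. Each SE is the absolute log2 fold change divided by the square root of its F statistic, which takes in the spread between libraries. Counts under 26 date-like symbols took at most 0.091% of the 4 libraries.

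The comparison, its 25 gene lists and the choice of genes to name were made with earlier results of these data known. The rule took 14 preset genes, the 10 genes per direction with the largest fold and the 10 with the smallest p among called genes whose days did not overlap in CPM, with a mean of 50 counts or more in the higher group and without predicted-gene or date-like symbols, and up to 4 called members of each list, or its 2 highest by CPM where none was called. Bc1, Gstt1, Cacng8, Gal3st3, Scn9a, Hivep3, AI661453, Tubb3, Stmn2, mt-Nd1, mt-Atp6, Flna and Myh9 were also named by it and are not described. Of 115 genes of the text checked for overlap, 113 matched a RefSeq gene of GRCm38.p6. For 10 of them, an overlapping gene held at least 10% as many counts, so reads of the pair may be mixed: Atf5, Atp6v0a4, Ccnd1, Ddah1, Pfkp, Plet1, Snrpn, Tdrkh, Tle6 and Zbed3.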

Additional observations from a re-analysis of the deposited data

How the results depend on the processing

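The balance of higher and lower calls held under other scalings: 46% to 48.2% of called genes were higher with TMM, median-ratio or upper quartile factors, and 1027 and 1006 of the 1029 called genes were called with the other 2 factors. Without a filter on low counts 1634 genes were called, 803 higher and 831 lower. With a minimum absolute log2 fold change of 1, 353 were called, 144 higher and 209 lower. At that minimum 142 genes high in CtbpDKO were lower and 63 genes low in CtbpDKO were higher, and 19 Dux-dependent and 119 Dux-independent genes were lower. Applying the minimum to the CtbpDKO list instead left 85 of 735 low genes higher (11.6%) and 238 of 1369 high genes lower (17.4%), with 19.4% of Dux-dependent genes lower in place of 12.6%, and 20.7% of Dux-independent genes in place of 16.4%. Leaving out 1 library at a time gave 340 to 607 genes called, 149 to 296 higher, 191 to 311 lower, 141 to 225 and 54 to 122 of the genes high and low in CtbpDKO, 18 to 29 Dux-dependent and 116 to 189 Dux-independent genes. The lone library left in a group is then assumed to vary like the other groups. Of the genes named in the report, 6 changed sign there, none of them called: Zscan4c (-0.11 without day 0 replicate 2 and -0.27 without day 3 replicate 2, up to 0.33), Zscan4d (-0.69 to 0.23), Dppa4 (-0.12 to 0.0045), Dnmt1 (-0.038 to 0.22), Dazl (-0.71 to 0.23) and Trim28 (-0.15 to 0.0768, and 0.0218 without day 0 replicate 2). DESeq2 called 1264 genes, and a fit of only the 4 libraries 747. The cause of these differences was not tested, apart from the number of libraries and genes that each alternative itself changes.

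Deviations of same-numbered libraries from their group means correlated at -0.0355 between days 0 and 3 over 12174 genes. With 2 libraries a day, this value cannot decide whether same-numbered libraries share a culture or batch, and the labels do not say. With the replicate number as a block, 859 genes were called, 402 higher and 457 lower, of which 844 were also called without the block.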

Other observations

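Several gene families were chosen after their values were seen and are given by counts, with no test of the family. At day 3 2.41% of all tested genes were higher and 2.59% lower. Of 10 tested annexin genes, which encode calcium-dependent membrane-binding proteins, 4 fell and none rose, with a median log2 fold change of -0.57. Anxa7 fell from 1679 and 1976 counts to 905 and 1115 (log2 fold change -0.77, edgeR adjusted p = 0.00194). Of 7 tested S100a genes, small calcium-binding proteins of which S100a10 is the partner of annexin A2, 3 fell and none rose, with a median of -0.91. S100a10 fell from 3037 and 2810 counts to 1449 and 1503 (log2 fold change -0.91, edgeR adjusted p = 0.0015). Of 10 tested keratin genes 4 fell. Of 10 tested Frizzled genes, the receptors of Wnt ligands, 2 rose: Fzd2 from 90 and 121 counts to 333 and 310 (log2 fold change 1.70, edgeR adjusted p = 0.000255) and Fzd7 from 2281 and 2899 to 4777 and 4545 (0.94, edgeR adjusted p = 0.000363). Both had been lower in CtbpDKO than in WT, by log2 fold changes of -2.31 and -0.93.

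Of 5 tested genes of the subcortical maternal complex, a protein assembly of the egg and early embryo, also chosen after their values were seen, 3 fell by day 3 and 1 rose. Khdc3 fell from 218 and 279 counts to 81 and 65 (log2 fold change -1.68, SE 0.20, edgeR adjusted p = 0.000363). Tle6 fell from 245 and 308 counts to 124 and 113 (log2 fold change -1.13, SE 0.17, edgeR adjusted p = 0.0018), and Ooep from 400 and 404 to 209 and 193 (log2 fold change -0.92, SE 0.15, edgeR adjusted p = 0.00284). In CtbpDKO against WT, Khdc3 and Tle6 were higher (3.75 and 2.02) and Ooep was lower (-0.68). The member that rose was Zbed3 (0.74, edgeR adjusted p = 0.0428), which was called in none of the 4 fits that leave out a library (adjusted p of up to 0.175), while Nlrp4f did not pass (1.03, edgeR adjusted p = 0.383).

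Not all calls are separate observations. All 22 tested gamma protocadherin genes were called higher, with log2 fold changes of 0.61 to 0.70, and their counts in a library lay close together (501 to 570 in day 0 replicate 1, 773 to 988 in day 3 replicate 1). These genes share their last exons, so the 22 cannot be read as separate observations among the 496 higher calls. Some genes were high in 1 library. Trim12a had 83187 counts in day 0 replicate 1, 75 in day 0 replicate 2, and 685 and 58 at day 3, and was not called (edgeR adjusted p = 0.0965). Gm20900 had 8741 counts in day 0 replicate 2 and 303 to 385 in the other 3 libraries, and Gm23971 had 48708 in day 3 replicate 1 and 2352 to 5510 in the others, and both were called (edgeR adjusted p = 0.0244 and 0.0453).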
